A study of Mus musculus with 8 samples.

Results

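The nuclear genes of the mitochondrial respiratory chain were followed in cultured mouse neurosphere cells. Members were the probe sets, the array's groups of oligonucleotides for a transcript, whose single annotated gene symbol starts with Nduf (complex I), Sdh followed by a to d (complex II), Uqcr (complex III), Cox followed by a digit (complex IV) or Atp5 (complex V). The rule took 106 of the 12488 probe sets of the array and 78 of the 8252 genes with a single symbol. Complex I had 31 genes, complex II 6, complex III 7, complex IV 20 and complex V 14. The symbol rule also took assembly factors such as Ndufaf4 and Cox17 and isoforms known from muscle or testis, and these are named as such. It missed 11 probe sets that carry several symbols. The 13 subunits encoded by mitochondrial DNA and Uqcrfs1, Cox4i2, Atp5b and Atp5g3 had no probe set with a single symbol and were not analysed here.

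The study grew neurosphere cultures from separately dissected forebrains of mouse embryos at embryonic day 14.5, all carrying a bcl2 transgene, and profiled total RNA after 2 days of exposure. The cells received 500 nM 5-Aza-2'-deoxycytidine (AzaC), 150 nM Trichostatin A (TSA), both compounds (AzaC/TSA) or neither (untreated). AzaC is a cytosine analogue that blocks DNA methyltransferases, and TSA is an inhibitor of histone deacetylases. There were 2 independent experiments, each with 1 array for every group, which gives 4 groups of 2. Every group carried the transgene, the labels name neither its promoter nor the strain, and the control received no stated vehicle. A neurosphere is a floating cluster of stem and progenitor cells with some of their progeny. In such bulk RNA, fewer cells of a type and less RNA per cell cannot be told apart.

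The respiratory chain sits in the inner mitochondrial membrane. Complexes I and II pass electrons from NADH and succinate to ubiquinone, complex III passes them on to cytochrome c, and complex IV passes them to oxygen. Complexes I, III and IV pump protons, and complex V, the ATP synthase, uses the proton gradient to make ATP. All but a few subunits are encoded in the nucleus, and many of those genes have promoters with sites for nuclear respiratory factor 1 (NRF1), GA-binding protein (an ETS factor) and YY1. Several complex IV subunits exist as a form found in most tissues and a second form found in heart and skeletal muscle or in testis. Neural progenitor cells draw on glycolysis more than neurons do, and neurons rely on oxidative phosphorylation.

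Values are the deposited signals, linear intensities that had been brought to the same trimmed mean on every array (200.12 to 200.14). Signals under 20 were raised to 20 before taking log2, and probe sets with a signal of 50 or more on 2 or more arrays were tested. Of the members, 83 probe sets of 72 genes were tested, and 7 of these had an array below the floor. A difference counted as called at a Benjamini-Hochberg adjusted p under 0.05 over the 7987 probe sets tested with limma, which shared its estimate of the spread over all 8 arrays. Over all probe sets tested, not the members alone, the median 95% interval reached 0.925 to either side of a log2 difference between 2 groups. It reached 0.654 to either side when the 4 arrays with TSA were set against the 4 without. Array medians ran from 59.2 to 72.7, and the ratios of the 5' to the 3' control probe sets from 0.29 to 0.471 for actin and from 0.738 to 1.04 for Gapdh. The Gapdh ratio was lower with TSA than in its own control in 4 of 4 comparisons (0.848 and 0.904, 0.808 and 0.867, 0.738 and 1.04, and 0.982 and 0.993), and the actin ratio in 3 of 4. The part of these ratios in the TSA results was not tested. The neural stem cell markers Sox2, with signals from 2390.6 to 4830.4, and Nes, from 1049.0 to 3003.0, were present on all arrays.

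Genes of complexes I, III and V fell in the arrays with TSA, and no respiratory chain gene rose in the fit without an experiment term. Setting TSA and AzaC/TSA against untreated and AzaC, 14 of the 83 member probe sets were called lower and 0 higher, while 7.54% of all probe sets were called lower and 6.95% higher. The 14 probe sets stood for 13 genes: Ndufaf4, Ndufs3, Ndufb8, Ndufb5, Ndufa8 and Ndufa9 of complex I, Uqcrb and Uqcrc1 of complex III, and Atp5o, Atp5g2, Atp5e, Atp5c1 and Atp5mpl of complex V. The median log2 change over the 83 tested members was -0.32, and that over all probe sets tested was -0.03. With the experiment as a block, 27 member probe sets were called lower and 5 higher, beside 12.2% and 11.7% of all probe sets. The block takes the difference between the experiments out of the spread. Leaving out arrays in turn, the count without the block was 5 without TSA replicate 1, 6 without untreated replicate 1, and 7 without untreated replicate 2, AzaC replicate 1, TSA replicate 2 or AzaC/TSA replicate 1. Uqcrb, Ndufb8, Ndufs3, Atp5o and Atp5g2 were called lower under all 16 alternative settings of this comparison. The tested probe sets of Uqcrb and Atp5g2 have names that mark a family. A further setting, limited to probe sets with plain names, leaves both out.

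The members did not all move. Of the 83 probe sets, 56 had a negative change and 27 a positive one, and the quartiles of the changes ran from -0.67 to 0.03. TSA can be compared with its own control in 4 ways, without and with AzaC in each experiment. In all 4, 43 member probe sets (51.8%) were lower and 10 (12%) were higher, whereas 22.5% of all probe sets tested were lower in all 4 and 20.7% higher. The 4 arrays with TSA did not overlap the 4 without in 22 member probe sets that were lower and 3 that were higher. Over all 7987 probe sets, 1004 (12.6%) were lower without overlap and 874 (10.9%) higher. Brighter probe sets were called more often, 29.3% of those with a mean signal of 1000 or more (a line drawn after the data had been seen) and 14.5% of all in either direction. Above that line 11 of 45 members were called lower with a median change of -0.41, and 110 of all 741 probe sets were called lower with a median of -0.02.

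**Figure D1:**
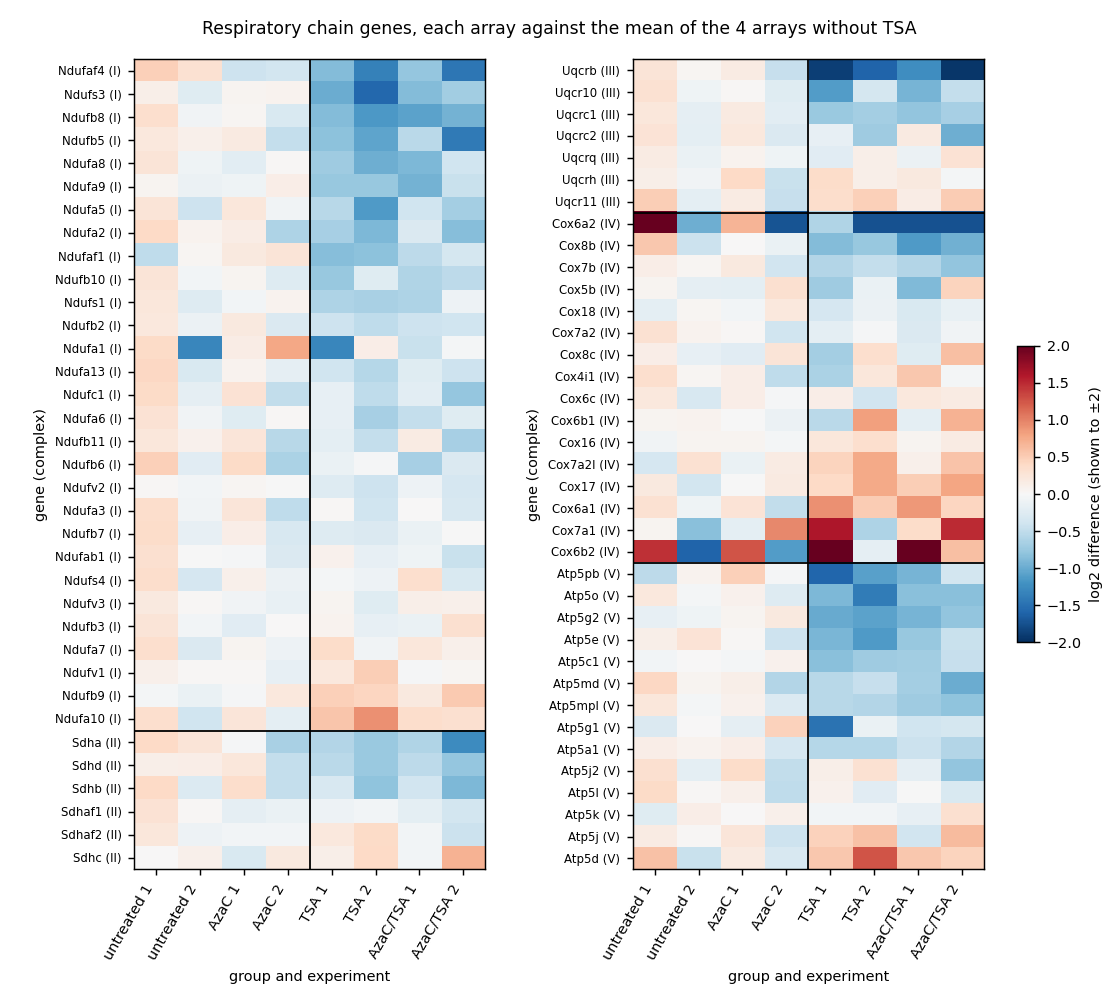
Log2 signal of each of the 72 tested genes (rows, 1 probe set per gene, complex in brackets) on each of the 8 arrays (columns, group and experiment), minus the mean of the 4 arrays without TSA; colours end at 2 in either direction. Most rows of complexes I and V turn blue to the right of the line, where TSA was present, while the lower rows of complex IV turn red.

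The complexes differed in their medians. Counting 1 probe set per gene, the median log2 change was -0.41 over 29 genes of complex I, -0.39 over 6 of complex II, -0.42 over 7 of complex III, 0.03 over 16 of complex IV and -0.63 over 14 of complex V. In the fit without the block, complex V had 5 genes called lower and complex I 6, complex III had 2, and complexes II and IV had 0 called in either direction. At an unadjusted p under 0.05 in that fit stood 3 genes of complex II and 4 of complex IV. The share of all probe sets at that level is not given here. It is at least as large as the share called at the adjusted threshold, 7.54% lower and 6.95% higher. With the block, Sdha, Sdhb and Sdhd of complex II and Cox7b and Cox8b of complex IV were called lower. Cox6a1, Cox17, Cox7a2l and Cox6b2 of complex IV were called higher, and complexes I, III and V gained further genes called lower. In all 4 comparisons with TSA, 9 of the 14 complex V genes and 18 of the 29 complex I genes were lower, and 6 of the 16 complex IV genes were higher. The 6 were Cox6a1, Cox7a2l, the assembly factors Cox16 and Cox17, the muscle form Cox7a1 and the testis form Cox6b2. For Cox16, 1 of the comparisons was 182.4 against 182.3. The 16 also held the assembly factor Cox18 and the isoforms Cox6a2, Cox8b and Cox8c, so they do not stand for the ubiquitous subunits alone. No complex V gene was higher in all 4. A difference between the complexes was not tested.

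**Figure D2:**
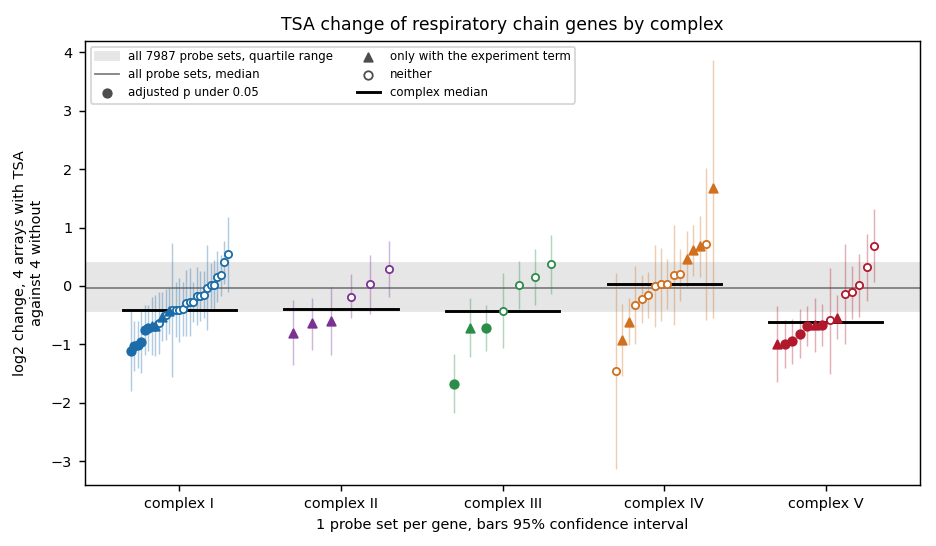
Log2 change of each tested gene, the 4 arrays with TSA against the 4 without, by complex; bars are 95% confidence intervals, black lines complex medians, and the grey band the quartile range of all 7987 probe sets tested. Filled circles, called in the fit without an experiment term, lie in complexes I, III and V only, and the triangles above 0, called only with that term, all belong to complex IV.

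Uqcrb, a small subunit of complex III that takes part in binding ubiquinone, had the largest called change of the members in this comparison. Its signals were 3103.8 and 2666.3 in the untreated arrays of experiments 1 and 2, 2919.6 and 1879.9 with AzaC, 700.7 and 857.3 with TSA, and 1097.8 and 677.4 with AzaC/TSA. The lowest array without TSA was above the highest with it. The log2 change was -1.67 (SE 0.22, adjusted p = 0.00237), a 3.18-fold lower signal, and the separate differences ran from -2.15 to -1.41. The probe set's name marks it as one that can also detect related transcripts. Uqcrc1, a core protein of the same complex, had 2008.2 and 1521.1 untreated, 1949.5 and 1483.6 with AzaC, 1026.1 and 1073.4 with TSA, and 1000.4 and 1088.6 with AzaC/TSA. It fell by 0.72 on the log2 scale (SE 0.18, adjusted p = 0.0277), and its groups with and without TSA were apart.

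The rest of complex III split. Uqcr10, a small subunit, had a change of -0.72 that missed the threshold (adjusted p = 0.063) and passed it with the experiment as a block (0.0267). The other core protein, Uqcrc2, had -0.42 (adjusted p = 0.367). The changes of Uqcrq, Uqcrh (the hinge protein) and Uqcr11 were 0.02, 0.16 and 0.37, with adjusted p of 0.964, 0.662 and 0.306. The 95% intervals of these changes can be seen in the plot by complex, and no member of complex III was higher in all 4 comparisons.

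In complex I, the core subunit Ndufs3, part of the arm that reaches into the matrix, was lower in all 4 comparisons with TSA. Its signals were 1623.1 and 1273.2 untreated, 1567.1 and 1572.8 with AzaC, 757.1 and 506.1 with TSA, and 827.7 and 930.4 with AzaC/TSA. The log2 change was -1.03 (SE 0.19, adjusted p = 0.00884), and the experiments gave -1.01 and -1.04. Ndufb8, an accessory subunit of the membrane arm, had 2353.1 and 1773.1 untreated, 1928.2 and 1521.5 with AzaC, 1022.4 and 844.1 with TSA, and 891.5 and 968.5 with AzaC/TSA. It fell by 1.01 on the log2 scale (SE 0.18, adjusted p = 0.00772). For both genes all 4 arrays with TSA lay below all 4 without.

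The assembly factor Ndufaf4 had low signals, 138.5 and 122.9 untreated, 74.9 and 77.3 with AzaC, 54.4 and 38.9 with TSA, and 58.3 and 36.5 with AzaC/TSA. The groups did not overlap, and the change was -1.11 (SE 0.30, adjusted p = 0.0401). The accessory subunit Ndufb5 had 6785.2 and 6282.7 untreated, 6631.6 and 4200.1 with AzaC, 3314.9 and 2831.5 with TSA, and 4045.5 and 2209.8 with AzaC/TSA. Its change was -0.96 (SE 0.24, adjusted p = 0.0291), on a probe set whose name marks a family. Ndufa8 and Ndufa9, also accessory subunits, fell by 0.75 and 0.72 on the log2 scale (SE 0.19 and 0.17, adjusted p = 0.032 and 0.0258). Their arrays with TSA reached 1011.3 and 1637.3 at most, and those without TSA started at 1162.1 and 2056.7.

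No other core subunit of complex I was called. Ndufs1, the largest iron-sulfur subunit, had 1218.1 and 874.2 untreated, 1006.3 and 1097.8 with AzaC, 678.5 and 664.6 with TSA, and 679.0 and 968.0 with AzaC/TSA, and its change of -0.50 missed the threshold (adjusted p = 0.12). Ndufv1, which binds NADH, had a change of 0.18 (adjusted p = 0.489) and Ndufv2, its iron-sulfur partner, -0.27 (0.269). Ndufa7 had 4260.0 and 2757.9 untreated, 3475.2 and 3113.9 with AzaC, 4318.5 and 3201.1 with TSA and 3916.2 and 3621.9 with AzaC/TSA, groups that overlapped throughout. The highest changes of the complex were those of the accessory genes Ndufa10 (0.54) and Ndufb9 (0.41), and neither passed the test with or without the block. With the block, Ndufa2, Ndufa5, Ndufb2 and Ndufb10 joined the 6 called lower, at changes from -0.69 to -0.43.

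Complex V had called genes in its rotor, its stalk and its membrane part. Atp5o, the protein that ties the catalytic head to the stalk and makes ATP synthase sensitive to oligomycin, had 4004.9 and 3380.3 untreated, 3672.3 and 2879.5 with AzaC, 1848.3 and 1311.3 with TSA, and 1929.1 and 1946.5 with AzaC/TSA. It fell by 0.99 on the log2 scale (SE 0.18, adjusted p = 0.00831). Atp5c1, the gamma subunit that turns inside the head, fell on both of its probe sets. The first had 4317.8 and 4523.0 untreated, 4391.4 and 4794.7 with AzaC, 2510.4 and 2743.5 with TSA, and 2767.5 and 3257.1 with AzaC/TSA. The changes were -0.68 (SE 0.15, adjusted p = 0.0192) and -0.76 (SE 0.19, adjusted p = 0.0287), and in both the groups stood apart.

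Atp5e, the epsilon subunit of the rotor, had 916.3 and 1014.5 untreated, 852.1 and 631.7 with AzaC, 446.0 and 383.1 with TSA, and 495.7 and 615.2 with AzaC/TSA. Its change was -0.82 (SE 0.18, adjusted p = 0.0209). The groups stood apart, though in experiment 2 the AzaC/TSA array was close to the AzaC array. Atp5g1, Atp5g2 and Atp5g3 encode the same mature subunit c of the membrane ring. Atp5g2 had 502.8 and 529.8 untreated, 587.2 and 643.7 with AzaC, 279.6 and 269.4 with TSA, and 296.4 and 325.6 with AzaC/TSA, a change of -0.95 (SE 0.17, adjusted p = 0.00791). The name of this probe set marks a family, so it can also detect related transcripts. The plain probe set of Atp5g2 had signals from 5.4 to 47.4 and was not tested. Atp5g1 had 45.8 and 56.0 untreated, 49.5 and 77.0 with AzaC, 16.3 and 51.0 with TSA, and 42.5 and 43.6 with AzaC/TSA, and its groups overlapped (change -0.59, adjusted p = 0.368). Atp5mpl, a small protein associated with the membrane part, fell by 0.66 on the log2 scale (SE 0.16, adjusted p = 0.028), with 2419.5 to 2896.0 in the arrays with TSA and 3508.8 to 4953.0 in those without.

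**Figure D3:**
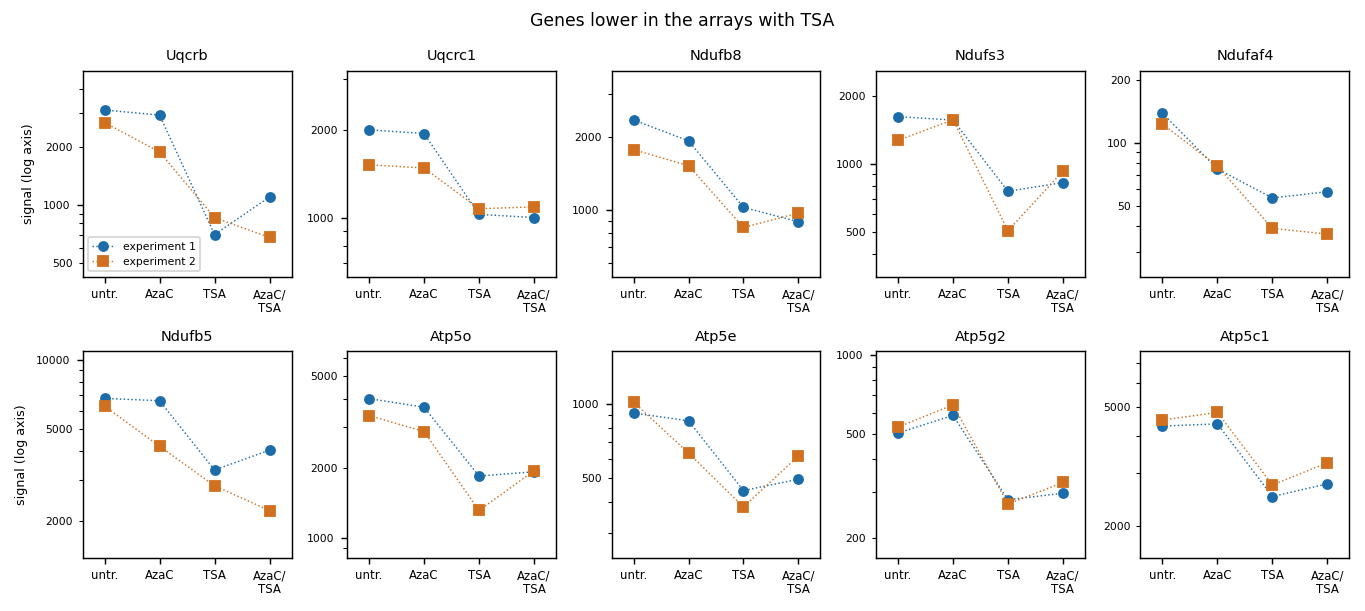
Deposited signal (log axis, own range per panel) of 10 of the genes called lower with TSA, by group, with 1 point per array and a line per experiment. In every panel the 4 points with TSA lie below the 4 without, as for Uqcrb with at most 1097.8 against at least 1879.9.

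Other complex V genes were near the threshold. Atp5pb, subunit b of the stalk, had a change of -1.0 (adjusted p = 0.0507), Atp5md -0.67 (0.0574) and Atp5a1, the alpha subunit, -0.54 (0.0613). Atp5a1 had 6085.4 and 5847.7 untreated, 6056.8 and 4375.6 with AzaC, 3727.8 and 3747.3 with TSA, and 4096.2 and 3709.0 with AzaC/TSA, without overlap. With the block these 3 were called lower (adjusted p = 0.0245, 0.00985 and 0.0158). Atp5l, Atp5k and Atp5j2 of the membrane part had changes of -0.11, 0.01 and -0.14, and Atp5j of the stalk 0.32, all with an adjusted p over 0.4. The value for Atp5l is that of its brighter probe set. Its other tested probe set, a dim one with a family name, had a change of -0.59 (adjusted p = 0.171). It had 44.0 to 76.3 with TSA and 84.3 to 95.4 without.

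Complex II had the same direction in its catalytic subunits. Sdha, the flavoprotein that oxidizes succinate, had 331.4 and 300.8 untreated, 247.3 and 159.9 with AzaC, 167.6 and 149.3 with TSA, and 164.6 and 104.4 with AzaC/TSA, and the AzaC array of experiment 2 lay within the range with TSA. Sdhb, the iron-sulfur subunit, had 2409.5 and 1517.8 untreated, 2326.9 and 1311.8 with AzaC, 1465.6 and 1041.8 with TSA, and 1403.0 and 979.2 with AzaC/TSA. Sdhd, a membrane anchor, had 1657.2 and 1677.2 untreated, 1775.2 and 1095.9 with AzaC, 1050.4 and 915.2 with TSA, and 1063.9 and 889.1 with AzaC/TSA. None passed without the block (changes -0.80, -0.60 and -0.64, adjusted p = 0.0639, 0.158 and 0.0591), and all 3 did with it (0.0188, 0.00974 and 0.0138). The second anchor, Sdhc, had a change of 0.29 (adjusted p = 0.413) and was higher in all 4 comparisons.

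Of the 10 genes higher with TSA in all 4 comparisons, 6 belonged to complex IV, 3 to complex I and 1 to complex II. Cox6a1, the form of subunit 6a found in most tissues, had 9009.7 and 6825.4 untreated, 8765.6 and 5169.4 with AzaC, 13718.5 and 10309.6 with TSA, and 13266.8 and 9757.5 with AzaC/TSA. All 4 arrays with TSA were above all 4 without, but the arrays within a group were far apart, and the change of 0.68 (SE 0.23) had an adjusted p of 0.0817. With the block the adjusted p was 0.00426. The name of the Cox6a1 probe set marks a family, so it can also detect related transcripts. Cox17, the chaperone that delivers copper to the complex, had 2034.4 and 1376.7 untreated, 1756.7 and 2019.4 with AzaC, 2327.5 and 3015.8 with TSA, and 2499.7 and 3068.7 with AzaC/TSA, a change of 0.61 (adjusted p = 0.067, with the block 0.029). Cox7a2l, which joins complexes III and IV into supercomplexes, had a change of 0.47 (adjusted p = 0.174, with the block 0.0322). Cox17 and Cox7a2l were outside the rule for named genes and were chosen after their values had been seen.

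Other ubiquitous subunits of complex IV had no called change in the fit without the block. Cox7b had -0.61 (adjusted p = 0.0518, with the block 0.0143), Cox5b -0.32 (0.517), Cox7a2 -0.15 (0.616) and Cox6c 0.03 (0.926). Cox5b, a subunit on the matrix side, had 3549.1 and 3016.4 untreated, 3005.1 and 4284.7 with AzaC, 2093.8 and 3126.9 with TSA, and 1854.0 and 4659.1 with AzaC/TSA. In experiment 1 its arrays with TSA were lower than their controls, and in experiment 2 they were higher. Cox4i1, the form of subunit 4 found in most tissues, was covered by 2 dim probe sets with changes of 0.03 and -0.03, and Cox6b1 by a dim one with 0.19 (adjusted p = 0.782). Cox5a and Cox8a did not pass the filter.

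The isoforms known from muscle and testis gave no common picture. Cox6a2, the heart and skeletal muscle form, had 271.7 and 34.0 untreated, 106.8 and 20.1 with AzaC, 43.8 and 18.6 with TSA, and 4.5 and 11.4 with AzaC/TSA. It was lower in all 4 comparisons, but it lay under the floor on 3 arrays, and its change of -1.45 missed the threshold (adjusted p = 0.234, with the block 0.0653). Cox8b, another muscle form, had 268.1 and 137.1 untreated, 185.5 and 167.7 with AzaC, 101.3 and 108.9 with TSA, and 84.2 and 94.7 with AzaC/TSA. Its groups did not overlap (change -0.93, adjusted p = 0.0518, with the block 0.0271). Cox7a1 (muscle) and Cox8c (testis) had changes of 0.72 and 0.00, with adjusted p of 0.451 and 0.996. Of 16 skeletal and heart muscle markers on the array 7 were tested, and 0 were called with limma or had an unadjusted p under 0.05. Their summed signal ran from 445.7 to 752.1 in the arrays without TSA and from 632.3 to 813.3 in those with it, and 2 of the 16 genes were under the floor on every array.

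Cox6b2, the testis form of subunit 6b, differed between the experiments more than any other tested member. Of its 3 probe sets, that with a family name had 321.2 and 38.6 untreated, 279.1 and 53.8 with AzaC, 1141.5 and 103.2 with TSA, and 898.0 and 178.2 with AzaC/TSA. Every array of experiment 1 was above every array of experiment 2, and in each experiment the arrays with TSA were above those without. The TSA change of 1.67 (SE 0.97) had an adjusted p of 0.294 without the block and of 0.00107 with it, and the experiments gave 1.76 and 1.57. That with a name ending in _i_at had 81.8 and 3.7, 73.7 and 2.4, 392.7 and 4.5, and 524.1 and 48.6 in the same order, with 3 of its experiment 2 arrays below the floor, and a change of 1.59 (adjusted p = 0.362, with the block 0.0222). The third, ending in _r_at, had signals from 6.6 to 74.7 and a change of -0.57 (adjusted p = 0.467). Of 4 germ line and testis markers on the array 1 was tested, and it was not called.

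**Figure D4:**
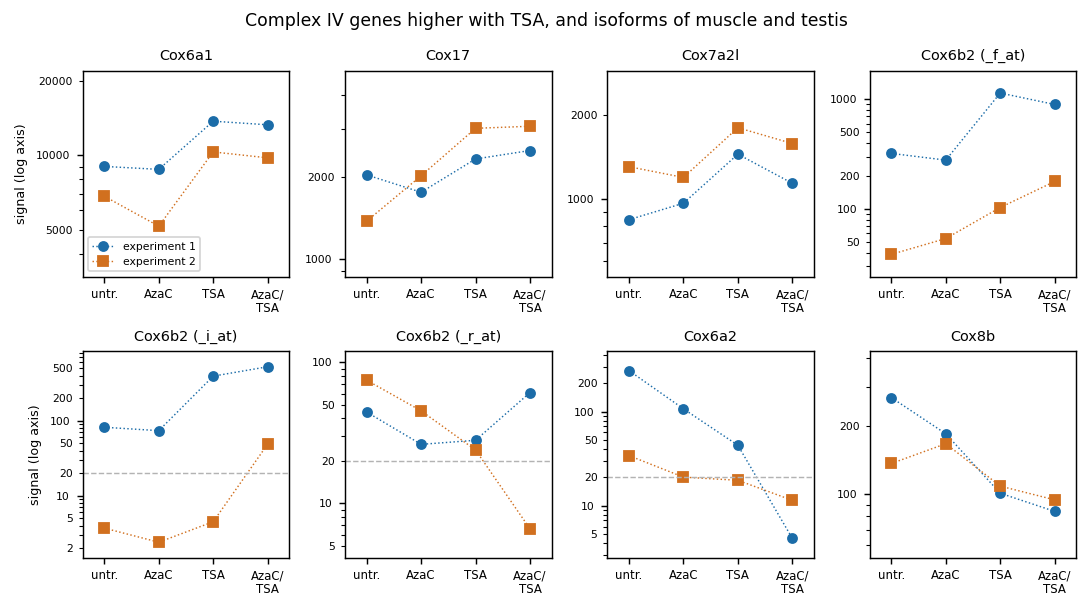
Deposited signal (log axis, own range per panel) of complex IV genes by group, with 1 point per array and a line per experiment; the dashed line is the floor of 20. Cox6a1, Cox17 and Cox7a2l and 2 probe sets of Cox6b2 are higher with TSA in each experiment or at the floor, Cox6a2 and Cox8b are lower, and Cox6b2 on its family probe set (_f_at) runs from 279.1 in experiment 1 but reaches no more than 178.2 in experiment 2.

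The experiments were compared directly in a fit with group and experiment. Of the 83 member probe sets 4 were called lower in experiment 2 and 0 higher, beside 2.64% and 1.58% of all probe sets. They were the 2 Cox6b2 probe sets, at -2.81 (SE 0.24, adjusted p = 0.00046) and -2.91 (SE 0.42, adjusted p = 0.00601, a value limited by the floor), Sdhb at -0.63 (SE 0.13, adjusted p = 0.0336) and Uqcrc2 at -0.67 (SE 0.15, adjusted p = 0.0433). The first Cox6b2 probe set was 7.0-fold lower in experiment 2. Leaving out any of the 8 arrays left 1 or 2 of the 4 called. The median difference over the members was -0.17, and over all probe sets 0.02. In all 4 groups 22 members (26.5%) were lower in experiment 2, and 13.6% of all probe sets were. None of the 56 tested members with a plain probe set name was called with limma, and 12 of them had an unadjusted p under 0.05. The share of all probe sets at that unadjusted level is not given here.

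TSA alone against untreated called 5 members lower and 0 higher, beside 2.93% and 2.09% of all probe sets. They were Uqcrb (-1.89, SE 0.32, adjusted p = 0.0146), Atp5o (-1.24, SE 0.26, 0.0299), Atp5e (-1.22, SE 0.26, 0.0342), Ndufs3 (-1.22, SE 0.27, 0.0369) and Ndufb8 (-1.14, SE 0.25, 0.0378). With the block 16 were called lower and 1 higher, Cox6b2, beside 6.56% and 5.6% of all probe sets. The median change of the members was -0.35, against 0.01 over all, and it was -0.20 without untreated replicate 1 and -0.52 without untreated replicate 2. Without either TSA array or either untreated array, 0 members were called, and without either AzaC/TSA array 3 were.

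AzaC/TSA against untreated called 2 members lower and 0 higher, Uqcrb (-1.74, SE 0.32, adjusted p = 0.0233) and Ndufb8 (-1.14, SE 0.25, adjusted p = 0.0491), beside 1.83% and 1.29% of all probe sets. With the block 12 were called lower and 1 higher, again Cox6b2, beside 4.96% and 4.38%. The median change of the members was -0.37, against 0.00 over all. Without untreated replicate 1, untreated replicate 2 or AzaC/TSA replicate 2, 0 members were called, and without any other array 1 was. This comparison and that of TSA alone share the untreated arrays.

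AzaC by itself gave no called member. Against untreated, 0 of the 83 members and 0.0% of all probe sets were called with limma, with and without the block, and 0 members had an unadjusted p under 0.05 (2 with the block). The changes ran from -1.05 for Cox6a2 to 0.92 for Ndufa1, a small accessory subunit near the filter, with a median of -0.12 beside 0.03 over all probe sets. Pooled over TSA, AzaC again gave 0 called members and 0.0% of all probe sets with and without the block. There 1 member had an unadjusted p under 0.05 (3 with the block), a dim probe set of Atp5d, the delta subunit of the rotor, at 1.01 (SE 0.32). The median 95% interval over all probe sets for AzaC against untreated, with 2 arrays a group, reached 0.925 to either side.

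The TSA difference was set against AzaC in an interaction, the difference between AzaC/TSA and AzaC minus that between TSA and untreated. It was called in 0 members and 0.0% of all probe sets with and without the block, and 0 members had an unadjusted p under 0.05 (2 with the block). The median over the members was 0.14, beside -0.03 over all, and 59 of the 83 values were positive. The differences without and with AzaC use different arrays. For Uqcrb they were -1.89 and -1.44, for Ndufs3 -1.22 and -0.84, for Atp5o -1.24 and -0.75, for Atp5g2 -0.91 and -0.98, and for Cox6a1 0.60 and 0.76. Across the 72 genes, which are not independent and share arrays and scaling, Pearson's r between these differences was 0.895 and Spearman's rho 0.876. Over the 83 member probe sets r was 0.835, and over all 7987 probe sets it was 0.751.

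**Figure D5:**
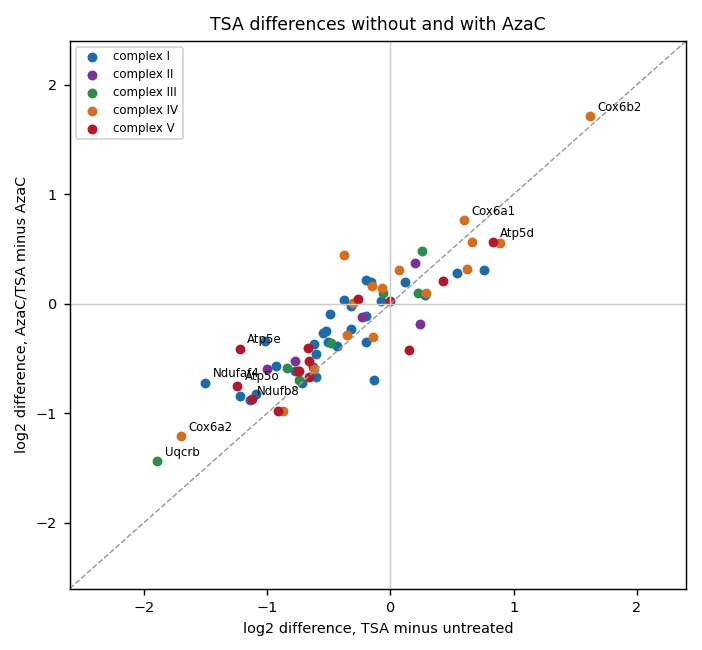
Log2 difference of each tested gene between TSA and untreated (horizontal) and between AzaC/TSA and AzaC (vertical), coloured by complex; the dashed line marks equal values. The genes lie along the line, from Uqcrb and Cox6a2 at the lower left to Cox6b2 at the upper right.

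Some genes were read by several probe sets. Of the 21 such genes 8 had several tested, and for 3 of these the signs of the TSA change differed: Cox6b2, Cox4i1 and Atp5d. Atp5d had changes of 0.69, 0.34 and 0.29 on 3 probe sets whose names mark a family and of -0.65 on its dim plain probe set, and none was called. Among the tested members 56 probe sets had plain names and 18 family names. With plain names alone 9 members were called lower with TSA, over both AzaC states. Of all probe sets tested, whatever their names, 7.54% were called lower. The share among all probe sets with plain names is not given here. The 23 probe sets not tested had signals from 0.7 to 93.7 with a median of 11.1, and left 6 genes without any test: Cox5a, Cox8a, Cox14, Cox20, Ndufa12 and Ndufc2.

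Promoter windows of RefSeq (GRCm38.p6, 250 bases before to 50 after a start) were matched to 63 of the 78 genes by gene identifier. They were searched on both strands for cores of motifs known from respiratory genes, GCATGCGC for NRF1, CCGGAAG for ETS factors and AAGATGGC for YY1. The NRF1 core lay in windows of 10 genes (15.9%), the ETS core in 21 (33.3%) and the YY1 core in 9 (14.3%). Among all 27025 genes with a window the shares were 3.05%, 9.93% and 3.19%. At least 1 core was found for 33 members (52.4%) and for 14.9% of all genes. By single windows, of which a gene can have several, the shares with any core were 49.3% for members and 13.3% for all. Of the 11 genes called lower that had a window, 8 had a core, and of the 46 tested genes with a window that were not called, 22 had one. The cores went different ways. NRF1 was found for 4 of the 11 (36.4%) and 6 of the 46 (13.0%), and YY1 for 2 (18.2%) and 6 (13.0%). ETS was found for 2 (18.2%) and 16 (34.8%). A difference was not tested, and the set of all genes was not limited to those on the array. These are letter matches, with no measure of binding.

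The windows of 4 of the 5 genes called lower under all 16 alternative settings are shown, 5' to 3' along the gene. That of Cox6a1 is added because its arrays with TSA were the higher ones. Capitals mark matches to the 3 cores on either strand. Ndufb8 has a YY1 core just after its start, Ndufs3 an ETS core on each strand, Atp5g2 and Cox6a1 an NRF1 core that overlaps its own reverse complement, Cox6a1 an ETS core besides, and Atp5o none of them. The fifth gene, Uqcrb, is named only.
Ndufb8 (chr19:44555393-44555692, minus strand): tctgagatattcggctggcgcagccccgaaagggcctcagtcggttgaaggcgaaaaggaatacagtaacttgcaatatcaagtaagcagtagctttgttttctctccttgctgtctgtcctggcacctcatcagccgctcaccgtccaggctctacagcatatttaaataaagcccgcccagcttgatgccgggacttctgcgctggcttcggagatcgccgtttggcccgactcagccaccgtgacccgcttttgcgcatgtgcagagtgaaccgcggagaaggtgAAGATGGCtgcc
Ndufs3 (chr2:90904672-90904971, minus strand): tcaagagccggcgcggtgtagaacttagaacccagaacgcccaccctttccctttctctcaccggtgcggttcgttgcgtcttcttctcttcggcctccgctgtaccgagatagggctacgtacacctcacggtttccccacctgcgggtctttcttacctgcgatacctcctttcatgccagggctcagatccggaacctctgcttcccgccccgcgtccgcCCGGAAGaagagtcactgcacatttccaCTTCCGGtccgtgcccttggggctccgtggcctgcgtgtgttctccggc
Atp5o (chr16:91931581-91931880, minus strand): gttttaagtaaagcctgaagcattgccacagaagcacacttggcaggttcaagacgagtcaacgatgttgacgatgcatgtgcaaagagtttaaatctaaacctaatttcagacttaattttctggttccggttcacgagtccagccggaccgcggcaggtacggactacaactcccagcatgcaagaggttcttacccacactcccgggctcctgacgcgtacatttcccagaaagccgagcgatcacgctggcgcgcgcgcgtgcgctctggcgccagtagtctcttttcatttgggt
Atp5g2 (chr15:102670998-102671297, minus strand): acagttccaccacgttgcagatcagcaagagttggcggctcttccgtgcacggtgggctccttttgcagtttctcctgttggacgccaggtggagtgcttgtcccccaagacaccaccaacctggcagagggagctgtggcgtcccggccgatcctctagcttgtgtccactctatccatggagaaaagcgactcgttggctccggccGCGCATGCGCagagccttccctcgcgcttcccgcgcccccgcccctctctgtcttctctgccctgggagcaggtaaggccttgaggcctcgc
Cox6a1 (chr5:115348909-115349208, minus strand): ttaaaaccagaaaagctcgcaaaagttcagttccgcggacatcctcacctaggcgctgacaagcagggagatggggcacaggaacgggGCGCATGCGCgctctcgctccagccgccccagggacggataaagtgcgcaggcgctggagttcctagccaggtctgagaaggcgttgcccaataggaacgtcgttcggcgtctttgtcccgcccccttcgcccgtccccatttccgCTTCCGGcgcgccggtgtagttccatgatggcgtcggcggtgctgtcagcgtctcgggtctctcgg

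Other genes of the pathway were counted from lists. Of 12 tested electron, nucleotide and phosphate carrier genes, 8 had a negative change with TSA and 4 a positive one, with a median of -0.43. Without the block 5 were called lower and 0 higher, beside 7.54% and 6.95% of all probe sets. They were Coq7 (-1.13, SE 0.22, adjusted p = 0.0118), which makes ubiquinone, Cycs (-1.01, SE 0.21, 0.0141), the cytochrome c that links complexes III and IV, Slc25a5 (-0.89, SE 0.18, 0.012), an ADP/ATP exchanger, Vdac3 (-0.70, SE 0.17, 0.0296), a channel of the outer membrane, and Cyc1 (-0.61, SE 0.15, 0.0308), the cytochrome c1 of complex III. Cycs had 552.6 and 426.4 untreated, 556.2 and 476.7 with AzaC, 173.3 and 237.7 with TSA, and 264.6 and 344.9 with AzaC/TSA, without overlap. With the block 5 carrier genes were called lower, and all 4 with a positive change were called higher, beside 12.2% and 11.7% of all probe sets.

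Of 18 tested genes of the citric acid cycle and pyruvate dehydrogenase, 1 rose and 1 fell with TSA. Of all probe sets 6.95% were called higher and 7.54% lower. Pdk3, a kinase that switches pyruvate dehydrogenase off, had 340.4 and 424.0 untreated, 325.6 and 292.8 with AzaC, 1354.1 and 1389.4 with TSA, and 1144.6 and 976.2 with AzaC/TSA. Its change was 1.81 (SE 0.17, adjusted p = 0.000435). Suclg2, a subunit of the succinate-CoA ligase that forms GTP, fell by 1.11 on the log2 scale (SE 0.21, adjusted p = 0.0112). With the block 1 of the 18 was called higher and 2 lower, beside 11.7% and 12.2% of all probe sets. Of 12 tested regulators of mitochondrial gene expression, 4 assembly factors outside the symbol rule and 7 genes of uncoupling and oxidant defence, 0 were called with limma, with or without the block, and 1 regulator had an unadjusted p under 0.05. Among the regulators Gabpa had a change of -0.56 (adjusted p = 0.105), Yy1 -0.12 (0.706) and Ppargc1a -0.33 (0.695).

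Some markers of cell types were called with TSA as well, beside 7.54% of all probe sets called lower and 6.95% higher. Of 8 tested stem and progenitor markers 1 was called, Fabp7, a lipid-binding protein of radial glia, which fell by 1.89 on the log2 scale (SE 0.30, adjusted p = 0.00459). The list's summed signal ran from 15190.5 to 17783.9 without TSA and from 6422.1 to 14200.6 with it. Of 5 neuron markers 2 rose, Snap25 (4.03, adjusted p = 0.000251) and Syp (1.71, 0.00884), and 1 fell, Tubb3 (-0.82, 0.0406), with summed signals from 1880.4 to 2744.8 without TSA and from 1502.0 to 2249.2 with it. Of 3 tested astrocyte markers S100b fell (-1.29, 0.0163), with sums from 622.7 to 3734.3 and from 360.6 to 1167.8. Of 3 tested macrophage markers Cd68 rose (2.84, 0.00284), with sums from 187.6 to 302.8 and from 237.9 to 660.7, and of 3 fibroblast markers Dcn rose (1.41, 0.0456), with sums from 439.6 to 588.8 and from 410.3 to 555.0. Of the blood, oligodendrocyte and endothelial lists 4, 1 and 1 genes were tested, and 0 were called with limma or had an unadjusted p under 0.05. With the block, 1 stem and progenitor marker was called higher and 2 lower, and 2 astrocyte markers were called lower. Of all probe sets 11.7% were called higher and 12.2% lower with the block. The part of these marker shifts in the respiratory chain results was not tested.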

How the data were processed

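Total RNA of 8 neurosphere cultures was hybridised to 1-colour arrays. The values are linear intensities deposited by the authors; the software that made them is not given in the sources used here, and their 2%-trimmed means were equal on all arrays, so a change is relative to that mean. The members and gene lists were chosen with earlier results of these data known.

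Values were floored at 20 (10% of the trimmed mean), filtered (50, or 25%, on at least 2 arrays) and taken to log2. limma 3.58.1 in R 4.3.3 fitted the 4 groups on all 8 arrays with an intensity trend, tested on simulated data, with two-sided Benjamini-Hochberg adjusted p-values over 7987 probe sets. The fit had 4 residual and 4.93 prior degrees of freedom. The number of arrays limits the precision, and the labels call the experiments independent.

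Replicate numbers are experiment numbers in the labels, and same-numbered arrays deviated together (r from 0.203 to 0.411), so the numbers pair the arrays and the fit with experiment as a block is given where it changes a call. The brightest probe set stood for a gene. Named genes were all called members, in each complex the 3 with the largest TSA change and the 2 brightest, core subunits and tissue isoforms. Alternatives changed the scaling, floor, filter, trend, groups fitted, block, probe sets, symbols and arrays. Present symbols by gene identifier gave the same 106 probe sets. Lists of carriers, citric acid cycle, regulators, assembly factors, oxidant defence and cell type markers were counted.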

Additional observations from a re-analysis of the deposited data

How the results depend on the processing

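The AzaC comparisons and the interaction had 0 called members under every alternative run. In the other comparisons every called member kept its direction, and the counts of called members moved. With TSA pooled over AzaC, where 14 were called, 9 were with no filter on dim probe sets, 6 without the intensity trend and 9 with plain probe set names only (a setting chosen after seeing the data), and 5 to 13 when 1 array was left out. For TSA against untreated, where 5 were called, 1 was with no filter, 1 without the trend, 1 with only the groups compared in the fit and 3 with plain names, and 0 to 4 without 1 array. For AzaC/TSA against untreated, where 2 were called, 1 was with median centring, 1 with the floor at 2.5%, 0 with no filter, 0 without the trend, 0 with only the groups compared and 1 with plain names, and 0 to 1 without 1 array. For the experiments, where 4 were called, 0 were with no filter, 2 without the trend and 0 with plain names, and 1 to 2 without 1 array. With the replicate block the counts were 32 for TSA pooled over AzaC, 17 for TSA and 13 for AzaC/TSA, and the pairing by experiment changed no other count. With no filter 12422 probe sets share the correction, and leaving out an array leaves a group with 1, whose spread is taken from the other groups; the other causes were not tested. The change of Cox6b2 in TSA against untreated, not called, ran from -0.11 (without TSA replicate 1) to 3.36 (without TSA replicate 2) as arrays were left out. The members' median change in TSA against untreated, -0.35 with all arrays, was -0.20 without untreated replicate 1 and -0.52 without untreated replicate 2. No scaling moved the median of all probe sets by more than 0.06. Dim probe sets are limited by the floor, and 2 arrays a group limit the precision.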
